A study of Homo sapiens with 6 samples.

Results

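The HOX genes and the PBX and MEIS genes were followed in Caco-2 cells, a human colon carcinoma line that takes on features of small-intestinal enterocytes when it is kept confluent. Genes were taken whose symbol was HOXA, HOXB, HOXC or HOXD followed by a number only, or PBX or MEIS followed by a digit, and which had a probe set carrying that symbol alone. The rule used names and no measured value. It gave 33 genes of the 14884 measured: HOXA2, 10 HOXB, 7 HOXC and 9 HOXD genes, PBX2, PBX3 and PBX4, and MEIS1, MEIS2 and MEIS3. RefSeq lists 46 genes that fit the rule, and the other 13, among them 10 of the 11 HOXA genes, were not analysed here, so the HOXA cluster is represented by HOXA2 alone.

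Lentivirus was given to subconfluent cells, and RNA was taken 17 days after that. There were 3 groups of 2 arrays each: cells with scramble shRNA, a control hairpin, cells with FAM46A-shRNA#2 and cells with FAM46A-shRNA#4, 2 different hairpins against FAM46A (TENT5A), a gene of the family of noncanonical poly(A) polymerases. All 3 groups carried a lentiviral hairpin and came from the same tumour line. FAM46A itself was not analysed here, so its depletion is unmeasured here and a sample's group rests on its label alone. The 2 arrays of a group are labelled biological replicates, but no source used here says whether they were separate infections or cultures. A p-value therefore covers only the spread between these samples.

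HOX genes encode transcription factors with a homeodomain, and they lie in clusters in which the order of the genes along the chromosome follows the order in which they act along the body axis. Genes with low numbers act anteriorly, in the hindbrain and upper trunk, and genes with high numbers act posteriorly, in the lower trunk, limbs and hindgut. PBX and MEIS proteins belong to the TALE class of homeodomain proteins, which bind DNA together with HOX proteins and raise their selectivity. In the gut, HOX genes mark the position of a segment along its length and remain expressed in epithelium and mesenchyme of the adult.

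Each value is a log2 intensity from which the median of the 6 arrays was subtracted for each probe set. A value of 0 is therefore the middle of the 6 arrays, not absence, and a gene that is not expressed cannot be told apart from an expressed gene that did not change. A change is a difference of group means on the log2 scale, given with its standard error (SE) from the fit of all 6 arrays. A gene was called higher or lower at a limma adjusted p under 0.05, with Benjamini-Hochberg adjustment over all 14884 genes. The standard deviation of the difference between the 2 arrays of a group, over the 33 genes, was 0.137 in the scramble group, 0.134 with shRNA#2 and 0.132 with shRNA#4.

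Averaged over both hairpins and set against the scramble control, 5 HOXB genes were higher and 3 HOXC genes were lower. The HOXD genes stayed uncalled. By hairpin, 5 HOXB genes were higher with shRNA#2 and 2 with shRNA#4. Of the HOXC genes, 3 were lower with shRNA#2, and with shRNA#4 1 was higher and 1 lower. For the mean of both hairpins, HOXB9 had the largest change of the 33 genes, 1.48 ± 0.11 (SE), which is 2.80-fold. In all, 10 of the 33 genes were called for that mean, 7 higher and 3 lower, which is 30.3% of them. The background over all genes was 25.4% called, 14.8% higher and 10.6% lower, so the share of HOX, PBX and MEIS genes called was near that of any gene. The split by cluster was 5 higher and 0 lower of 10 HOXB genes with a median change of 0.23, and 0 higher and 3 lower of 7 HOXC genes with a median of -0.25. It was 0 of 9 HOXD genes with a median of 0.00, against a median of 0.00 over all genes. HOXA2 was higher, as was 1 of 3 MEIS genes, and 0 of 3 PBX genes were called. At an unadjusted limma p under 0.05 the counts of 0 stayed 0, for lower HOXB, higher HOXC, HOXD and PBX genes. Fitted with the 4 hairpin arrays as 1 group, which puts the difference between the hairpins into the spread, 2 of these 10 calls were kept, those of HOXB9 and HOXC9. Without scramble replicate 1 and without scramble replicate 2, 5 genes were called each time.

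**Figure D1:**
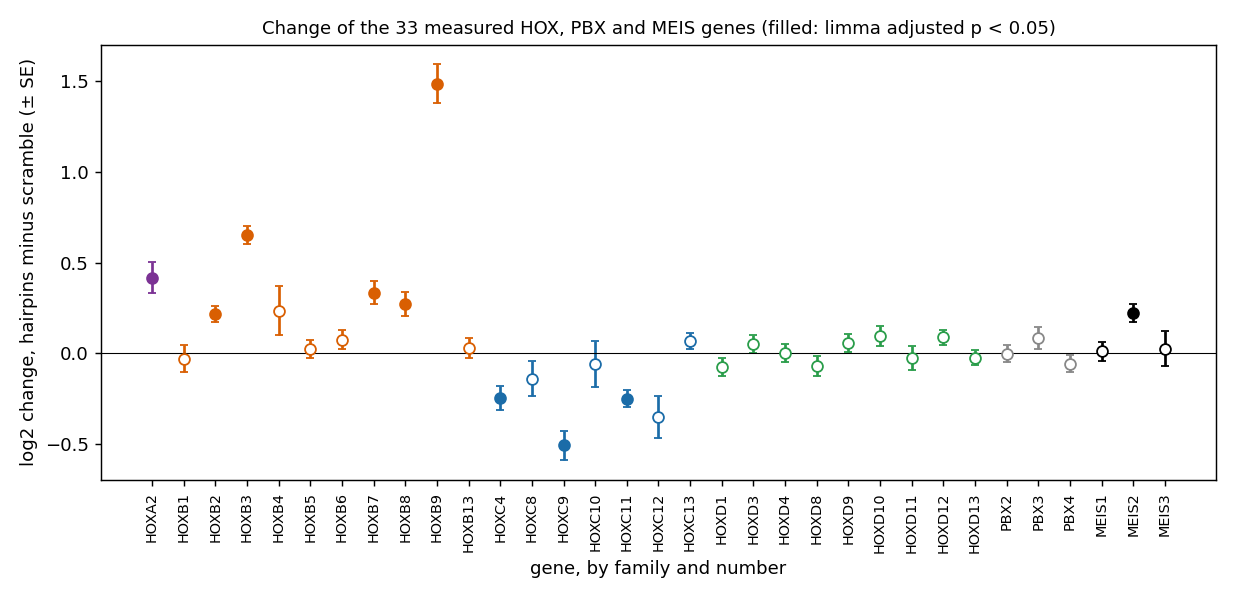
Change of each of the 33 genes for the mean of both hairpins minus scramble (y axis, log2, bars show the SE), with the genes grouped by family along the x axis and filled points marking a limma adjusted p under 0.05. HOXB9 stands highest at 1.48, HOXC9 lowest at -0.51, and the 9 HOXD genes lie between -0.07 and 0.09.

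The HOXB cluster held the 2 largest increases, those of HOXB9 and HOXB3, and all its called genes lay in the stretch from HOXB2 to HOXB9. HOXB9, a posterior gene of the trunk, stood at -1.02 and -1.38 on the scramble arrays, 0.66 and 0.49 on the shRNA#2 arrays and 0.02 and -0.02 on the shRNA#4 arrays. The 4 hairpin arrays were all above both scramble arrays, and shRNA#2 was above shRNA#4. Such a separation of the hairpin arrays from scramble, above or below, was common, in 11 of the 33 genes and 5390 of all 14884. HOXB9 rose by 1.48 ± 0.11 for the mean of both hairpins (limma adjusted p = 0.00052), and leaving out each array in turn gave between 1.30 and 1.67. HOXB3, an anterior gene that patterns the hindbrain, stood at -0.37 and -0.36 with scramble, 0.54 and 0.61 with shRNA#2 and 0.06 and -0.06 with shRNA#4. The groups did not overlap, with shRNA#4 between the others. HOXB3 rose by 0.65 ± 0.051 (limma adjusted p = 0.00062).

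HOXB7, a central gene, had scramble values of -0.18 and -0.28, shRNA#2 values of 0.29 and 0.12 and shRNA#4 values of -0.03 and 0.03. Its hairpin arrays lay above scramble, and it rose by 0.33 ± 0.065 (limma adjusted p = 0.013). HOXB2, which acts in the hindbrain, had scramble values of -0.18 and -0.14, shRNA#2 values of 0.10 and 0.13 and shRNA#4 values of 0.04 and -0.04. These also did not overlap, and the change was 0.21 ± 0.044 (limma adjusted p = 0.016). HOXB8, known from myeloid progenitors, differed from these in that the shRNA#4 arrays overlapped the scramble arrays. Its values were -0.02 and -0.13 with scramble, 0.34 and 0.50 with shRNA#2 and -0.07 and 0.02 with shRNA#4. The shRNA#2 arrays alone lay clearly above the rest, and the change for the mean of both hairpins was 0.27 ± 0.066 (limma adjusted p = 0.028).

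The smaller HOXB calls ended when single arrays were left out. The limma adjusted p of HOXB2 was 0.098 without scramble replicate 1, 0.054 without scramble replicate 2 and 0.052 without shRNA#2 replicate 2. That of HOXB7 was 0.079 without scramble replicate 2. For HOXB8 it was 0.056 and 0.15 without scramble replicates 1 and 2, 0.061 without shRNA#2 replicate 2, 0.072 without shRNA#4 replicate 2, and 0.051 after quantile normalization of the arrays.

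Of the other HOXB genes, HOXB4, known for its action in blood stem cells, had the widest spread between replicates of all 33 genes. Its scramble values were -0.03 and -0.28, its shRNA#2 values 0.34 and 0.37 and its shRNA#4 values 0.03 and -0.43, a gap of 0.455 between the 2 shRNA#4 arrays. The shRNA#2 arrays were the highest, and the change of 0.51 ± 0.16 against scramble was not called (limma adjusted p = 0.067). With the replicate number as a block, which pairs equally numbered arrays, the same change had a limma adjusted p of 0.026. HOXB5 and HOXB6 changed by 0.02 ± 0.048 and 0.07 ± 0.052 for the mean of both hairpins, and HOXB1 and HOXB13, at the ends of the cluster, by -0.03 ± 0.075 and 0.03 ± 0.055. HOXB1 acts in a hindbrain segment and HOXB13 in the hindgut, tail and prostate. Of the 10 HOXB genes, 9 had a change above 0 for the mean of both hairpins, beside 7609 of all 14884 genes. With shRNA#4 alone, 7 of the 10 had a change above 0, beside 7723 of all genes. In RefSeq's annotation HOXB3 overlaps HOXB4, and whether their probe sets share signal was not tested.

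**Figure D2:**
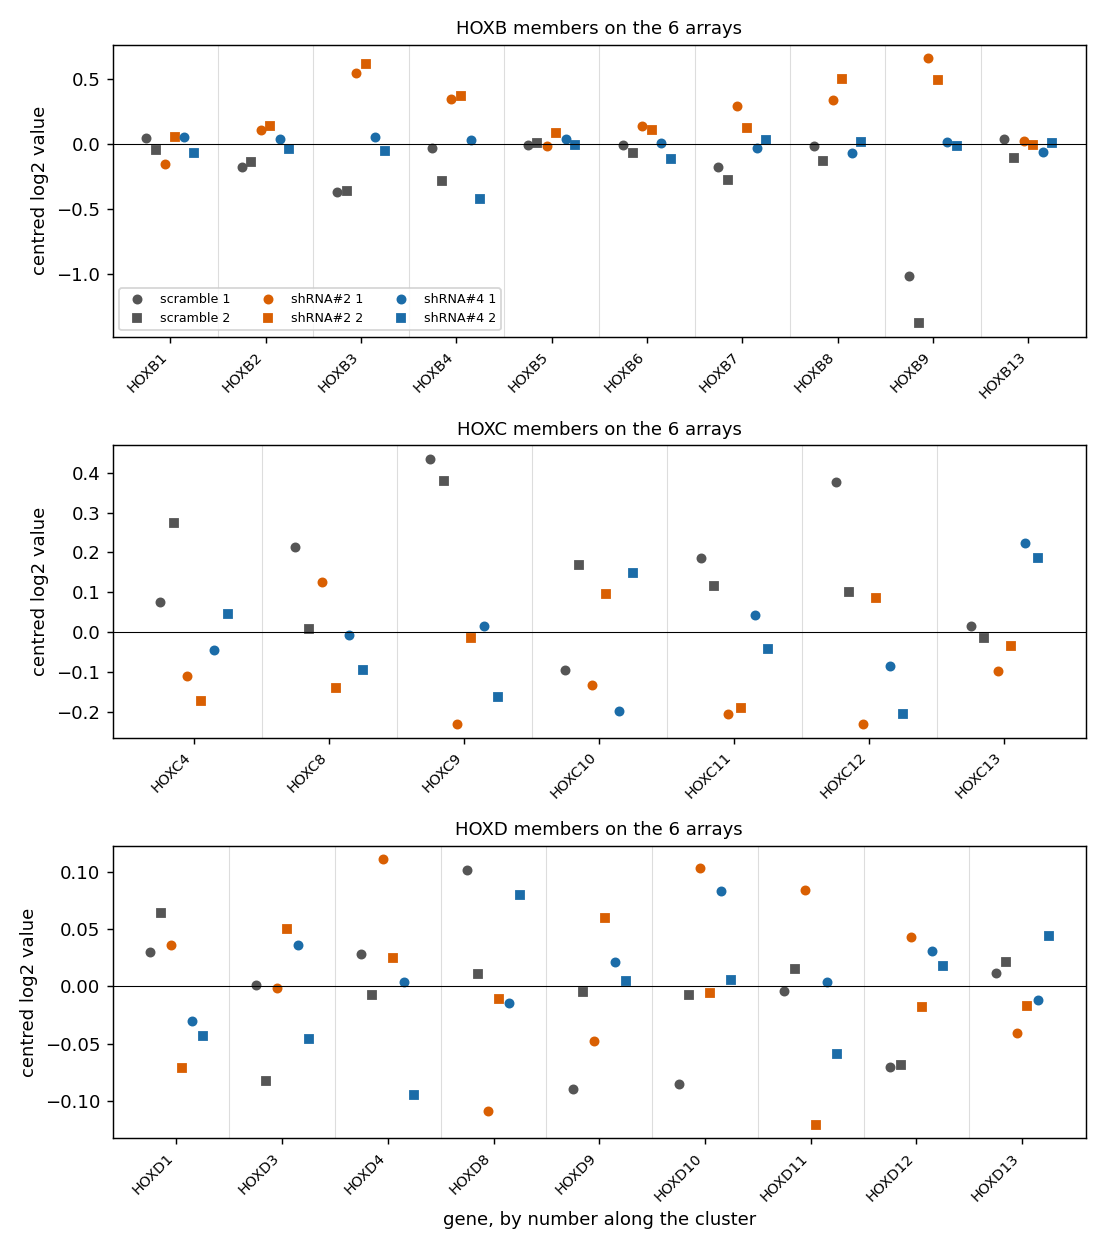
Centred log2 values (y axis) of the HOXB, HOXC and HOXD genes on each of the 6 arrays, by gene number along the x axis, with colour for the group and shape for the replicate; the 3 panels have different y scales. Scramble arrays are the lowest for HOXB2, HOXB3, HOXB7 and HOXB9 and the highest for HOXC4, HOXC9, HOXC11 and HOXC12, and the groups are mixed for most HOXD genes.

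In the HOXC cluster 6 of 7 genes had a negative change for the mean of both hairpins, and 3 were called lower. HOXC9, a posterior gene that sets thoracic identity in motor neurons, stood at 0.44 and 0.38 with scramble, -0.23 and -0.02 with shRNA#2 and 0.02 and -0.16 with shRNA#4. The hairpin arrays were all below scramble, and both hairpins lay in the same range. HOXC9 fell by 0.51 on the log2 scale (SE 0.081, limma adjusted p = 0.0062), and left-out arrays moved this change between -0.56 and -0.45.

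HOXC11, a posterior gene, had scramble values of 0.19 and 0.11, shRNA#2 values of -0.21 and -0.19 and shRNA#4 values of 0.04 and -0.04. The 3 groups did not overlap, and the change was -0.25 ± 0.048 (limma adjusted p = 0.012), or 0.082 without scramble replicate 1. HOXC4, the central gene at the anterior end of the cluster, stood at 0.08 and 0.27 with scramble, -0.11 and -0.17 with shRNA#2 and -0.04 and 0.04 with shRNA#4. Scramble was highest here too, but the lower scramble array lay close to the higher shRNA#4 array. Its change of -0.25 ± 0.068 had a limma adjusted p of 0.044, and this p was between 0.066 and 0.21 without scramble replicate 2 or without any of the 4 hairpin arrays, and 0.054 after quantile normalization. Without scramble replicate 2 the change of HOXC4 was -0.15.

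HOXC13, which acts in hair and nail, was the only HOXC gene with a positive change for the mean of both hairpins, 0.07 ± 0.044. It stood at 0.01 and -0.01 with scramble, -0.10 and -0.04 with shRNA#2 and 0.22 and 0.19 with shRNA#4. The hairpins thus lay on opposite sides of scramble, and the rise of 0.20 ± 0.050 with shRNA#4 was called (limma adjusted p = 0.029). That p was 0.077 to 0.12 without either scramble array or either shRNA#4 array. HOXC12 had a change of -0.35 ± 0.12 and was not called (limma adjusted p = 0.078). Its hairpin values, from -0.23 to 0.09, all lay below the scramble values of 0.38 and 0.10. Of all 14884 genes, 5390 had their hairpin arrays all above or all below scramble. HOXC8 and HOXC10 had changes of -0.14 ± 0.095 and -0.06 ± 0.13.

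The clusters also hold microRNA genes, antisense RNAs and other noncoding RNAs, and 15 of 27 listed were measured. Between HOXC10 and HOXC9 lies MIR196A2, a hairpin gene for miR-196a. It was called lower, and of the 15 it was the only gene called for the mean of both hairpins. MIR196A1, in the HOXB cluster, gives the same mature miR-196a-5p, and MIR196B, in the HOXA cluster, gives miR-196b-5p. The family is known for pairing with the messenger RNA of HOXB8 and other HOX genes. The mature sequences from RefSeq (GRCh38.p14) are shown because MIR196A2 and MIR196A1 share a product, and only MIR196A2 was called. Capitals mark the seed, bases 2 to 8.
hsa-miR-196a-5p: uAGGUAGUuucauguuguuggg
hsa-miR-196b-5p: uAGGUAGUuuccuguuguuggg
The first sequence lies at chr12:53991762-53991783 on the plus strand in MIR196A2 and at chr17:48632532-48632553 on the minus strand in MIR196A1, and the other at chr7:27169528-27169549 on the minus strand in MIR196B. They share their seed and differ at 1 of 22 bases, A12C, counted from the 5′ end with the base of miR-196a-5p given before that of miR-196b-5p.

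MIR196A2 stood at 0.71 and 0.43 on the scramble arrays, 0.01 and -0.01 with shRNA#2 and -0.03 and -0.12 with shRNA#4. The scramble arrays stood apart above the other 4. The change was -0.61 ± 0.085 for the mean of both hairpins (limma adjusted p = 0.0039), -0.57 ± 0.098 with shRNA#2 (limma adjusted p = 0.010) and -0.64 ± 0.098 with shRNA#4 (limma adjusted p = 0.0053). Without either shRNA#2 array the shRNA#2 value had an adjusted p of 0.055. MIR196A1 had a change of 0.06 ± 0.069 and MIR196B of 0.30 ± 0.098 (limma adjusted p = 0.074), so neither was called. The labelled DNA was made from total RNA, and these probe sets bear the name of the hairpin gene, so the mature miRNA was not measured, and cross-hybridisation between the copies was not tested. HOXB8, HOXC8 and HOXD8 had changes of 0.27, -0.14 and -0.07 for the mean of both hairpins. By hairpin, HOXB8 changed by 0.50 with shRNA#2 and by 0.05 with shRNA#4, where it was not called (limma adjusted p = 0.74). A link between MIR196A2 and these genes was not tested.

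None of the other 14 listed genes was called for the mean of both hairpins by limma, so 6.67% of the 15 were called, against 25.4% of all genes. Over all 15 an unadjusted limma p under 0.05 was reached by 2 higher and 3 lower genes. The share of all genes at that unadjusted threshold was not counted. In the HOXC cluster, HOTAIR, which RefSeq places over HOXC11, had a change of -0.19 ± 0.078, MIR615, which lies within HOXC4, -0.19 ± 0.070 and HOXC13-AS -0.08 ± 0.059. HOXB-AS3, which overlaps HOXB5 and HOXB6, had 0.20 ± 0.061 (limma adjusted p = 0.064). With shRNA#2 alone HOXB-AS3 rose by 0.28 ± 0.071 (limma adjusted p = 0.036), a call with an adjusted p of 0.060 to 0.16 without either scramble array, without shRNA#2 replicate 1 or without either shRNA#4 array. The remaining changes were within 0.11 of 0: PRAC1, a coding neighbour of HOXB13, had -0.01, HOXA-AS3 0.02, HOXA10-AS 0.11, HOXA11-AS -0.01, HOTTIP -0.10, HOXD-AS2 -0.07, HAGLR -0.01 and MIR10B 0.02.

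**Figure D3:**
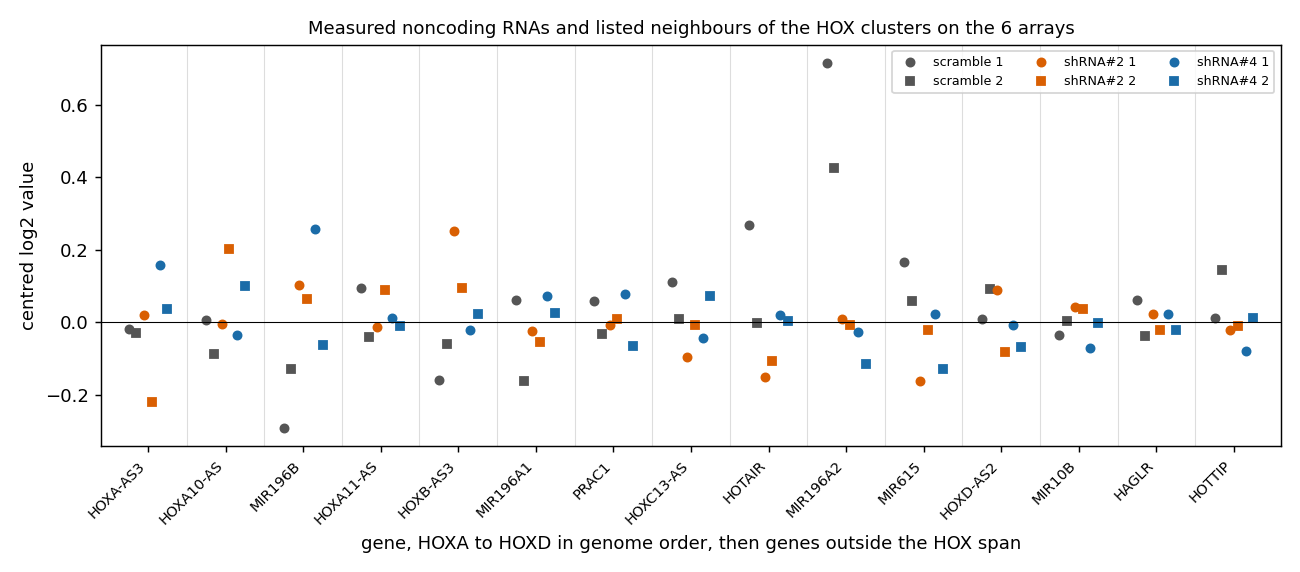
Centred log2 values (y axis) of the 15 measured noncoding RNAs and listed neighbours of the HOX clusters on each of the 6 arrays, with colour for the group and shape for the replicate. The scramble values of MIR196A2, 0.71 and 0.43, stand above all other points of that gene, which lie between -0.12 and 0.01.

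The HOXD cluster was measured in full, and 0 of its 9 genes were called by limma for the mean of both hairpins, with shRNA#2, with shRNA#4 or between the hairpins, and the count was also 0 at an unadjusted p under 0.05 in each comparison. The changes for the mean of both hairpins were -0.07 for HOXD1, 0.05 for HOXD3, 0.00 for HOXD4, -0.07 for HOXD8, 0.06 for HOXD9, 0.09 for HOXD10, -0.03 for HOXD11, 0.09 for HOXD12 and -0.02 for HOXD13. HOXD13 and its neighbours pattern the digits and the hindgut sphincter, and HOXD1 and HOXD3 act anteriorly. No bound of the 95% intervals of these changes was farther than 0.226 from 0, and with single hairpins none was farther than 0.275. These bounds are small beside the change of HOXB9. They hold for the intensity, and since the level was removed by centring, they cannot tell a cluster that stayed at its level from a cluster that was not expressed. HOXD3 overlaps HOXD4 in RefSeq.

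HOXA2, which patterns the hindbrain and the second pharyngeal arch, stood at -0.21 and -0.10 with scramble, -0.10 and 0.10 with shRNA#2 and 0.64 and 0.42 with shRNA#4. The shRNA#4 arrays were highest, and the lower shRNA#2 array lay within the scramble range. HOXA2 rose by 0.68 ± 0.10 with shRNA#4 (limma adjusted p = 0.0046), and its change with shRNA#2, 0.15 ± 0.10, was not called (limma adjusted p = 0.38). For the mean of both hairpins the change was 0.42 ± 0.087 (limma adjusted p = 0.016), or 0.36 with an adjusted p of 0.11 without scramble replicate 1.

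RefSeq's promoter table held 17 of the 33 genes, 13 of them at the outermost start of the gene. HOXA2 and HOXC4 were the called genes among these 13, and HOXD11 is shown beside them as the posterior gene with an entry at its outermost start that changed least. The 250 bases before the start are given 5′ to 3′ on the strand of the gene, from GRCh38.p14: HOXA2 at chr7:27102684-27102933 on the minus strand, HOXC4 at chr12:54016638-54016887 and HOXD11 at chr2:176107030-176107279, both on the plus strand. Capitals mark matches to 3 motifs searched on both strands, the HOX-PBX motif TGATNNAT, the MEIS motif TGACAG and TTTATNG, bound by posterior HOX and CDX proteins.
HOXA2: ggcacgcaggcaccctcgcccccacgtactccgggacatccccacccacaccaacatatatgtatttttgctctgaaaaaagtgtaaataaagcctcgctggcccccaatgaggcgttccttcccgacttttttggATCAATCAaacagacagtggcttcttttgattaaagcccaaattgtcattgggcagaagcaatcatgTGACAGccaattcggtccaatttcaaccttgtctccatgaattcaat
HOXC4: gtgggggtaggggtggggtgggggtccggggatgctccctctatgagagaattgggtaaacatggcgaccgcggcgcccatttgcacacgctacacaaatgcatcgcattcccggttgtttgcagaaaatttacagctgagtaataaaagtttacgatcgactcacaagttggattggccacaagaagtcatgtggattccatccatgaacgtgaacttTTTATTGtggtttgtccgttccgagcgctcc
HOXD11: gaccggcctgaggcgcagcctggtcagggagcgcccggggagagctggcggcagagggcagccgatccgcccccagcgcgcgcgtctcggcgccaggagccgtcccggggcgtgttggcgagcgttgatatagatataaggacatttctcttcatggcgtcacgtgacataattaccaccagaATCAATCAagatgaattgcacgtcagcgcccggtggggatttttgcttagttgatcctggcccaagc
In HOXA2 the HOX-PBX motif starts at base 137, on the reverse strand, where it reads ATCAATCA, and the MEIS motif at base 204. HOXC4 holds TTTATTG at base 220, and HOXD11, which was not called, holds ATCAATCA at base 184. Over the 13 promoters, 3 held the HOX-PBX motif, 1 the MEIS motif and 2 the posterior HOX and CDX motif. Of all 34788 promoters of the same length, 6.49%, 13% and 8.95% held these motifs, respectively. The 13 promoters had a median of 16 CpG and an observed over expected CpG ratio of 0.857, against 11 and 0.556 for all promoters, at a GC content of 59.6% against 58.0%. These are descriptions of the sequence, and no binding was measured.

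Among the cofactors, MEIS2 was called and the PBX genes were not. MEIS2, a partner of HOX and PBX proteins on DNA, stood at -0.14 and -0.17 with scramble, 0.08 and 0.19 with shRNA#2 and 0.04 and -0.04 with shRNA#4, so that the hairpin arrays lay above scramble. Its change was 0.22 ± 0.051 for the mean of both hairpins (limma adjusted p = 0.023). MEIS2 had 2 probe sets, which disagreed: the change was 0.45 on the more variable probe set and 0.00 on the other, and the value above is their mean. The adjusted p was 0.083 and 0.11 without scramble replicates 1 and 2, 0.060 without shRNA#2 replicate 2 and 0.060 without shRNA#4 replicate 1. MEIS1 and MEIS3 had changes of 0.01 ± 0.053 and 0.03 ± 0.095.

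PBX2, which was averaged over 6 probe sets, had a change of -0.00 ± 0.049, PBX3 of 0.09 ± 0.060 and PBX4 of -0.06 ± 0.047. PBX3 had the largest PBX change in the comparison of shRNA#2 with scramble, 0.21 ± 0.069, and was not called there (limma adjusted p = 0.083). PBX proteins also bind DNA with partners outside the HOX family.

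By place along the clusters, the measured HOX genes were split into anterior genes, numbered 1 to 3, central genes, numbered 4 to 8, and posterior genes, numbered 9 to 13. Of 6 anterior genes 3 were higher and 0 lower, with a median change of 0.13. Of 9 central genes 2 were higher and 1 lower, with a median of 0.02, and of 12 posterior genes 1 was higher and 2 were lower, with a median of 0.00. The classes hold different shares of the clusters, since no HOXC gene is anterior. Without HOXB, the 7 anterior and central genes had 1 higher, 1 lower and a median of -0.07, and the 10 posterior genes had 0 higher, 2 lower and a median of -0.03. Within HOXB, 2 of 3 anterior, 2 of 5 central and 1 of 2 posterior genes were higher, and within HOXC, 1 of 2 central and 2 of 5 posterior genes were lower. At number 9 the paralogs went opposite ways: HOXB9 rose, HOXC9 fell and HOXD9 had 0.06 ± 0.052. At number 4 only HOXC4 was called, as lower, while HOXB4 had 0.24 ± 0.14 and HOXD4 had 0.00 ± 0.051. The difference between clusters or between position classes was not tested, since neighbouring genes in a cluster are not independent.

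**Figure D4:**
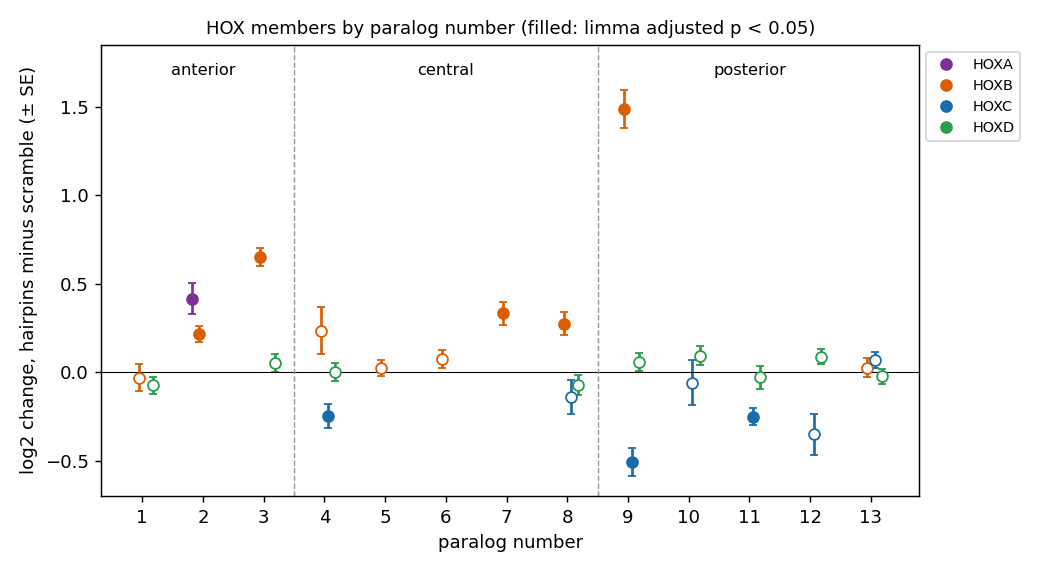
Change of each measured HOX gene for the mean of both hairpins minus scramble (y axis, log2, bars show the SE) by paralog number (x axis), coloured by cluster, with filled points at a limma adjusted p under 0.05 and dashed lines between the position classes. At number 9, HOXB9 lies at 1.48 and HOXC9 at -0.51; calls in both directions occur among central and posterior genes.

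The 2 hairpins were then read separately; both comparisons share the scramble arrays. With shRNA#2, 9 of the 33 genes were called (27.3%), 6 higher and 3 lower, against 21.6% of all genes, 12.1% higher and 9.54% lower. With shRNA#4, 5 were called (15.2%), 4 higher and 1 lower, against 26.1% of all genes, 15.7% higher and 10.4% lower. The shRNA#4 count was 3 without scramble replicate 1 and 3 without shRNA#4 replicate 2. The HOXB median was 0.36 with shRNA#2, with 5 genes higher, and 0.03 with shRNA#4, with 2 higher. The HOXC median was -0.31 with shRNA#2, with 3 genes lower, and -0.16 with shRNA#4, with 1 higher and 1 lower. The HOXD medians were 0.05 and -0.00.

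HOXB9, HOXB3 and HOXC9 were called with each hairpin. HOXB9 rose 3.42-fold with shRNA#2 (1.77 ± 0.12) and 2.29-fold with shRNA#4 (1.20 ± 0.12), with limma adjusted p-values of 0.00072 and 0.0014. HOXB3 rose by 0.94 ± 0.058 and by 0.36 ± 0.058 (limma adjusted p = 0.00054 and 0.0064), and the latter had an adjusted p of 0.055 after quantile normalization. HOXC9 changed by -0.53 ± 0.093 and -0.48 ± 0.093 (limma adjusted p = 0.011 and 0.013). Its adjusted p exceeded 0.05 without scramble replicate 1, at 0.058 and 0.063, without shRNA#2 replicate 1 for shRNA#2, at 0.053, and without shRNA#4 replicate 2 for shRNA#4, at 0.063.

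HOXB2, HOXB7, HOXB8, HOXC4, HOXC11 and MEIS2 were called with shRNA#2 and not with shRNA#4. Their changes with shRNA#2 were 0.27 ± 0.051, 0.44 ± 0.075, 0.50 ± 0.076, -0.32 ± 0.078, -0.35 ± 0.055 and 0.29 ± 0.059, in that order. With shRNA#4 they were 0.16 ± 0.051, 0.23 ± 0.075, 0.05 ± 0.076, -0.17 ± 0.078, -0.15 ± 0.055 and 0.15 ± 0.059. Except for HOXB8, none of these 6 differed between the hairpins at an adjusted p under 0.05, so a call with only shRNA#2 is not a difference between the hairpins. For MEIS2 the split also rests on averaging its 2 probe sets: on the more variable set the change was 0.58 with shRNA#2 and 0.31 with shRNA#4, and the latter was called (limma adjusted p = 0.044), which brought the shRNA#4 count to 6. The shRNA#2 calls of HOXB2, HOXC4 and MEIS2 ended without single arrays: the adjusted p of HOXB2 was 0.062 to 0.078 without scramble replicate 1 or either shRNA#2 array, and that of MEIS2 0.060 to 0.095 without either scramble array or shRNA#2 replicate 2. That of HOXC4 was 0.054 to 0.16 without scramble replicate 2 or any hairpin array.

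Set directly against each other, shRNA#2 and shRNA#4 differed in 5 of the 33 genes (15.2%), 3 higher and 2 lower with shRNA#2, against 15.3% of all genes, 6.64% higher and 8.63% lower. HOXB3, HOXB8 and HOXB9 were higher with shRNA#2 than with shRNA#4, by 0.58, 0.45 and 0.57, with limma adjusted p-values of 0.0034, 0.015 and 0.029. HOXA2 and HOXC13 were lower, by differences of -0.53 and -0.27 (limma adjusted p = 0.019 and 0.018). The count of 5 was 3 without shRNA#4 replicate 1 and 2 without any of the other 3 hairpin arrays, and HOXB3 kept its call each time. After quantile normalization the count was 8, with HOXB4, HOXC11 and PBX3 added (limma adjusted p = 0.038, 0.022 and 0.045). HOXB4 differed by 0.55 ± 0.16 and was not called (limma adjusted p = 0.067), and had an adjusted p of 0.027 with the replicate number as a block. The limma adjusted p exceeded 0.05 without any of the 4 hairpin arrays for HOXB9 (0.071 to 0.15) and HOXC13 (0.061 to 0.11). It did so without shRNA#2 replicate 1 or shRNA#4 replicate 1 for HOXA2 (0.099 and 0.079), and without shRNA#2 replicate 2, shRNA#4 replicate 1 or shRNA#4 replicate 2 for HOXB8 (0.069, 0.072 and 0.052).

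**Figure D5:**
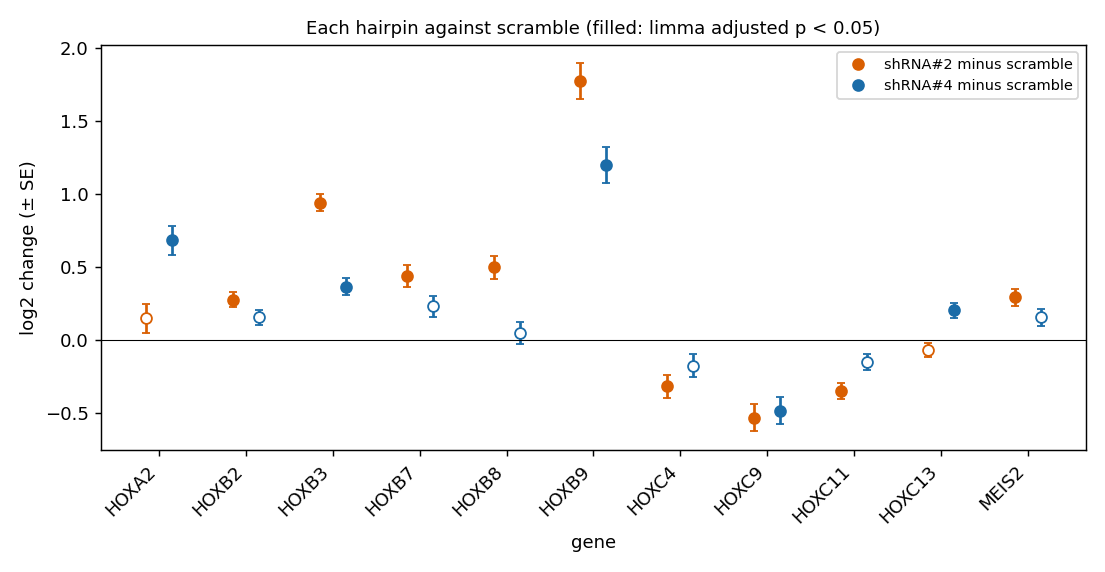
Change against scramble with shRNA#2 and with shRNA#4 (y axis, log2, bars show the SE) for the 11 genes called in at least 1 of the 4 comparisons, with filled points at a limma adjusted p under 0.05. HOXB9 is highest with both, HOXC9 is nearly level at -0.53 and -0.48, and HOXA2 and HOXC13 are higher with shRNA#4.

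Other genes known to act with or upstream of HOX genes were read from lists for the mean of both hairpins, where 14.8% of all genes were higher and 10.6% lower. Counts at an unadjusted p have no such share beside them, since it was not counted over all genes. Of 16 measured TALE and related homeobox genes 5 were higher and 0 lower, also 0 lower at an unadjusted p under 0.05, with a median change of 0.06. By hairpin, 4 of the 16 were higher with shRNA#2 and 3 with shRNA#4. IRX3, an Iroquois gene, rose by 0.74 ± 0.058, TGIF1, a TALE repressor, by 0.37 ± 0.090 and IRX5 by 0.37 ± 0.060 (limma adjusted p = 0.00064, 0.028 and 0.0064). PKNOX1 rose by 0.22 ± 0.054 (limma adjusted p = 0.031). Its adjusted p was 0.051 after quantile normalization and 0.053 with the 4 hairpin arrays as 1 group, and its call ended without some single arrays. The adjusted p of TGIF1 was 0.17 without scramble replicate 1, 0.060 without shRNA#4 replicate 1, 0.075 without shRNA#4 replicate 2, 0.057 after quantile normalization and 0.053 with the 4 hairpin arrays as 1 group.

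Of 18 intestinal patterning factors 3 were higher and 3 lower, with a median of 0.02. PROX1 rose by 0.99 ± 0.097, the stomach and foregut factor SOX2 by 0.84 ± 0.18 and FOXA2 by 0.60 ± 0.065, and GATA4, a factor of the proximal intestine, fell by 0.56 (SE 0.051). Their limma adjusted p-values were 0.0012, 0.017, 0.0016 and 0.0010, and that of SOX2 was 0.11 without scramble replicate 1, 0.060 after quantile normalization and 0.055 with the 4 hairpin arrays as 1 group. CDX2, which activates HOX genes in the hindgut and was singled out after its values were seen, stood at 0.09 and 0.23 with scramble, 0.05 and -0.05 with shRNA#2 and -0.14 and -0.26 with shRNA#4. The hairpin arrays were below scramble, and the change was -0.26 ± 0.065 (limma adjusted p = 0.032). The adjusted p of CDX2 was 0.052 to 0.17 without scramble replicate 2, either shRNA#2 array or shRNA#4 replicate 2, and 0.16 with the hairpin arrays as 1 group. CDX1 had a change of -0.05 ± 0.060.

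Of 26 Polycomb repressors, which keep HOX clusters silent where they are not used, 6 were higher and 1 lower (7 and 5 at an unadjusted limma p under 0.05), with a median of 0.02. RYBP rose by 0.70 ± 0.078, the methyltransferase EZH2 by 0.41 ± 0.073 and CBX6 by 0.35 ± 0.056, while PHF19 fell by 0.45 (SE 0.065). The CBX6 change was 0.69 ± 0.065 with shRNA#4 and 0.01 ± 0.065 with shRNA#2, where it was not called. With the 4 hairpin arrays as 1 group the limma adjusted p was 0.47 for CBX6, 0.16 for RYBP and 0.082 for EZH2. Of 14 Trithorax genes and H3K27 demethylases, which oppose Polycomb, 5 were higher and 0 lower (6 and 0 unadjusted), with a median of 0.14. PSIP1 rose by 0.69 ± 0.058, WDR5 by 0.31 ± 0.045, KDM6A by 0.31 ± 0.059 and RBBP5 by 0.29 ± 0.046. The adjusted p of KDM6A was 0.066 and 0.059 without scramble replicates 1 and 2, and that of RBBP5 was 0.085 with the hairpin arrays as 1 group.

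Retinoic acid is a known activator of anterior HOX genes, and of its 25 listed genes only 6 were measured, with 2 higher and 2 lower. RDH10, which makes retinal from retinol, fell by 1.08 (SE 0.074), DHRS3, which turns retinal back, fell by 0.46 (SE 0.046), and the carrier CRABP2 rose by 0.54 ± 0.064. RDH11 rose by 0.32 ± 0.060, with an adjusted p of 0.079 without scramble replicate 1; its change was 0.60 ± 0.069 with shRNA#2 and 0.04 ± 0.069 with shRNA#4, where it was not called. With each hairpin alone 1 of the 6 was higher and 2 were lower, and with shRNA#2 the higher gene was RDH11, not CRABP2. Among the 6, differences between the hairpins ran from -0.60 to 0.56. With the 4 hairpin arrays as 1 group the limma adjusted p was 0.42 for RDH11, 0.20 for CRABP2 and 0.20 for DHRS3. Of 10 genes of cohesin, insulators and cluster organisation, 3 were higher and 1 lower with shRNA#2, and 6 were higher and 1 lower with shRNA#4. Differences between the hairpins ran from -1.04 to 0.65, so the mean of both hides opposite changes. For that mean 4 were higher and 0 lower (5 and 0 unadjusted), with a median of 0.15. Its largest change was that of STAG1, 0.36 ± 0.075. Without scramble replicate 1 none of the 4 was called by limma, with adjusted p-values of 0.094 for STAG1, 0.13 for SMC3, 0.096 for WAPL and 0.16 for STAG2. That of STAG1 was also 0.070 without scramble replicate 2 and 0.16 with the hairpin arrays as 1 group.

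Markers of differentiation moved between the same groups. Of 13 measured epithelial and enterocyte markers 0 were higher and 9 lower (1 and 9 at an unadjusted limma p under 0.05), with a median of -0.61. APOA4 had a change of -2.95 ± 0.096, the lactase gene LCT of -2.13 ± 0.082, the sucrase-isomaltase gene SI of -1.49 ± 0.17 and APOA1 of -1.46 ± 0.045. The mean centred value of the 13 was 0.82 and 0.76 on the scramble arrays, -0.19 and -0.17 with shRNA#2 and 0.00 and 0.05 with shRNA#4. By this mean scramble was highest, shRNA#4 intermediate and shRNA#2 lowest. The median change of the 13 put the hairpins the other way, at -0.48 with shRNA#2 and -0.74 with shRNA#4. Between the hairpins only 2 of the 13 were called, both lower with shRNA#2. Among the called genes, HOXC4 and HOXC11 followed this order array by array, and HOXB2, HOXB3, HOXB7, HOXB9 and MEIS2 the reverse. HOXA2, HOXB8, HOXC9 and HOXC13 followed neither. The genes were called on the same arrays, so scramble standing at an end of the order was largely set by that choice. How many of all genes follow this order or its reverse was not counted, so these matches are a description only. The part of these markers in the HOX changes was not tested.

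Of 10 mesenchymal and fibroblast markers 3 were higher and 1 lower, with TAGLN at 0.44 ± 0.055 and VIM at 0.28 ± 0.048. SNAI1 was also higher, at 0.24, and THY1 was lower, at -0.20 (limma adjusted p = 0.036 and 0.020). The limma adjusted p of SNAI1 was 0.058 after quantile normalization and 0.067 with the 4 hairpin arrays as 1 group. Both the SNAI1 and the THY1 call ended without some of the single arrays. The change then lay between 0.19 and 0.29 for SNAI1 and between -0.23 and -0.17 for THY1. TAGLN differed in sign between the hairpins, at 1.11 ± 0.064 with shRNA#4 (limma adjusted p = 0.00033) and -0.23 ± 0.064 with shRNA#2, which was not called (limma adjusted p = 0.051), and with the 4 hairpin arrays as 1 group its adjusted p was 0.67. VIM had an adjusted p of 0.057 without scramble replicate 1 and of 0.18 with the hairpin arrays as 1 group, and a change of 0.66 on its most variable probe set. The mean value of the 10 was -0.04 and -0.01 with scramble, -0.02 and 0.01 with shRNA#2 and 0.11 and 0.15 with shRNA#4. Of 7 blood and endothelial markers 0 were higher and 3 lower (1 and 3 unadjusted), CD68, LYZ and LAPTM5, at -2.01 ± 0.17, -1.16 ± 0.11 and -0.77 ± 0.13. Their mean was 0.37 and 0.55 with scramble, -0.12 and -0.04 with shRNA#2 and -0.07 and -0.02 with shRNA#4. Whether any of these markers was at background cannot be read from centred values, and their part in the HOX changes was not tested. All samples were labelled Caco-2, a single tumour line, so the list names stand for marker genes and not for other cell types in the culture. In RNA from whole cultures, fewer cells in a given state and less RNA per cell cannot be told apart.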

How the data were processed

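Each of the 6 arrays held 1 Caco-2 sample, 100 ng of total RNA turned into biotin-labelled sense-strand DNA, per the labels' protocols. The deposited values are log2 intensities that the authors centred on each probe set's median over the 6 arrays, as the values show; no source used here names the summarisation, the normalization or the logarithm's base, which was taken as 2. Of 48144 probe sets 16098 had 1 symbol in the platform table, 0 several and 32046 none, and probe sets of a gene were averaged (779 genes of 14884 had several).

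A linear model with 3 groups was fitted to all 6 arrays in limma 3.58.1 (R 4.3.3), with eBayes without trend, 3 residual degrees of freedom and a prior of 3.09. P-values were Benjamini-Hochberg adjusted over the whole table, and the script was tested on simulated data. The median SE for the mean of both hairpins was 0.057, and the number of arrays limits the precision. Every measured member was named, and called members were given by array; of each gene list up to 4 called genes of largest change were named, with CDX2 added. Members and lists were chosen with earlier results of these data known. Equally numbered arrays deviated together from their group means (r = 0.18, 0.12 and 0.20 between groups, across genes), so the numbers were taken to pair the arrays; the main fit has no pairing, and the replicate block is an alternative. Alternatives were quantile normalization, centring of arrays, 1 probe set per gene, a robust prior, the replicate block, a stricter threshold, other samples in the fit and leaving out each array. Figures were drawn with matplotlib.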

Additional observations from a re-analysis of the deposited data

Results flagged for a closer look

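In 5 genes the change against the shared scramble arrays differed between the hairpins, by limma's direct test of shRNA#2 minus shRNA#4. HOXB3 was higher with shRNA#2 by 0.58, HOXB9 by 0.57 and HOXB8 by 0.45. HOXA2 and HOXC13 were higher with shRNA#4, with differences of -0.53 and -0.27. The mean of HOXC13 lay below scramble with shRNA#2 and above it with shRNA#4.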

How the results depend on the processing

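Over 897 comparisons of a called gene with an alternative, 734 kept direction and call, 163 kept the direction and lost the call, and 0 changed direction. These counts include called genes of the lists as well as members. In several alternatives the direction could not change, since the change itself stayed as it was. These were the stricter threshold, the robust prior, the replicate block and the 4 hairpin arrays as 1 group. The same held for fits of only the arrays compared, and without an array outside the comparison. Of the 33 genes, 10 were called for the mean of both hairpins, 3 at an adjusted p under 0.01, 2 with the 4 hairpin arrays as 1 group, and 5 to 9 when each array was left out. With shRNA#2 the count was 9, 5 at the stricter threshold and 6 to 10 without an array. With shRNA#4 it was 5, 3 and 3 to 5, and between the hairpins 5, 1 and 2 to 5, and 8 after quantile normalization. With the replicate block, which pairs arrays by number, the counts were 10, 10, 5 and 6: HOXB4 was gained with shRNA#2 and between the hairpins, and no other call of a member changed. The HOXD median of 0.00 was 0.040 with the most variable probe set per gene. Without an array in turn the median lay between 0.160 and 0.264 for HOXB, -0.246 and -0.211 for HOXC, -0.018 and 0.026 for HOXD, 0.114 and 0.152 for anterior, 0.012 and 0.049 for central, and -0.0070 and 0.036 for posterior genes. The cause of these shifts was not tested. The median change of all genes was 0.0050 at most under either scaling of the arrays. Centred values give no signal over background, so the limit set by dim probe sets was not analysed here.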
